A study of Homo sapiens with 8 samples.

Results

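DBF4B, its paralogue DBF4 and CDC7, the kinase that both activate, were followed through the promoter windows of 19957 genes. The 3 genes were taken by name, and each had 1 window. DBF4B was chosen by its read counts in these same OGAP and input libraries, so its OGAP over input values are given as a description, with no test. DBF4 and CDC7 were added for their function.

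CDC7 is a serine/threonine kinase that starts DNA replication. It is inactive alone and works only when bound to an activator, DBF4 or DBF4B (also called DRF1), and its best known substrates are subunits of the MCM helicase that is loaded at replication origins. Phosphorylation of MCM lets CDC45 and the GINS complex join, which turns the loaded helicase into a moving one. In human cells DBF4 is the better studied activator, and DBF4B has been described in S phase and the passage through mitosis.

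The libraries were OGAP-seq libraries, in which DNA fragments with oxidative base damage are pulled down and sequenced, and libraries of input DNA that was not pulled down. All came from RPE1, an established human cell line of retinal pigment epithelial origin. KD cells were depleted of NuMA (also called TDIF in the labels), a nuclear and spindle-pole protein, and are the cells labelled as taken after doxycycline. WT cells had no doxycycline, so depletion and doxycycline cannot be told apart. There were 2 libraries each of KD OGAP, KD input, WT OGAP and WT input. Whether both libraries of a group stem from different cultures is not stated, so the spread behind the p-values could be technical. That spread was mostly pooled over all windows, so a single window's own libraries weigh little in its p-value and interval. The windows count DNA, not RNA, so neither the cell type nor the depletion can be read from them: the NUMA1 window held 11 and 4 reads in KD OGAP, 8 and 16 in KD input, 6 and 5 in WT OGAP and 2 and 1 in WT input. The libraries held 368593 to 771138 promoter reads.

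On hg38, that of DBF4B (ENSG00000161692) lies on chromosome 17, 44707607 to 44709607, plus strand, with its centre 58 bp before the RefSeq gene start, and overlaps no other window. That of CDC7 (ENSG00000097046) lies on chromosome 1, 91499892 to 91501892, plus strand, with its centre 41 bp after the gene start, and also stands alone. That of DBF4 (ENSG00000006634) lies on chromosome 7, 87875215 to 87877215, plus strand, and shares 1858 bp with the window of SLC25A40, a mitochondrial carrier gene transcribed from the other strand, which leaves 143 bp of its own. The promoter sequences around each gene start are shown because guanine is the base most easily oxidised. They are RefSeq sequences (GRCh38.p14, plus strand, 5′ to 3′) at chr17:44708415-44708714 for DBF4B, chr7:87876243-87876542 for DBF4 and chr1:91500601-91500900 for CDC7. Capitals mark every run of 3 or more G or of 3 or more C, which is a run of G on the other strand.
DBF4B: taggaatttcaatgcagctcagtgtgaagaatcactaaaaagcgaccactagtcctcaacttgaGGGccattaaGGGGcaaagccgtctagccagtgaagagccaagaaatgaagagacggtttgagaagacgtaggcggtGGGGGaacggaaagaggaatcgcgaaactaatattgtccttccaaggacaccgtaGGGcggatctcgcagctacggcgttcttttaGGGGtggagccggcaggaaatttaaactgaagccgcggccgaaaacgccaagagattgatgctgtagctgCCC
DBF4: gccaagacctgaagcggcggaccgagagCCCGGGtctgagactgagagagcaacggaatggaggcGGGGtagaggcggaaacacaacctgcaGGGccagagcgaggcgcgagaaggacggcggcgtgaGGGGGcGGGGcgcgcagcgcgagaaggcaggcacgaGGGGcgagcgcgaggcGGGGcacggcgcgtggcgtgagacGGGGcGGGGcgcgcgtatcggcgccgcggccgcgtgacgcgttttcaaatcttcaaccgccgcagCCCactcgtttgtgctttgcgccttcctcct
CDC7: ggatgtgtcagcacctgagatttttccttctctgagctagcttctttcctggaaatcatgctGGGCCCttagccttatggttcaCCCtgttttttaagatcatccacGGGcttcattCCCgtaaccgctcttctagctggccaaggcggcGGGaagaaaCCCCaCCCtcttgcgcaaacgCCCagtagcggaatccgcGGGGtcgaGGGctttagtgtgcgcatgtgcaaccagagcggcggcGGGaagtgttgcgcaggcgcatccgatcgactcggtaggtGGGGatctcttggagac

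The promoter of DBF4B had few G runs. It held 6 runs of 3 or more G or C, fewer than in CDC7 (13) and DBF4 (11), where the median over the 11292 promoters of named windows with a sequence was 15 and 8.15% of promoters held fewer. Its GC content was 51.3%, against a median of 63%, and 18.3% of promoters were lower. The GC content was 70.7% in DBF4 and 57% in CDC7. DBF4 held 44 CpG dinucleotides, more than 94.3% of promoters, where DBF4B held 18 and CDC7 held 20.

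Short motifs of cell cycle promoters were searched on both strands. A core of the E2F site, TTCCCGC or its reverse GCGGGAA, occurred at 2 places in CDC7, starting 102 and 9 bases before the gene start, and in neither activator; 9.18% of promoters held it. The CHR letters TTTGAA occurred in DBF4, starting 3 bases before the gene start, as in 12.1% of promoters. The related letters TTTAAA, which read the same on both strands, occurred in DBF4B at the same distance, as in 9.52% of promoters. ACGCGT, the MluI box letters known from yeast, which also read the same on both strands, occurred in DBF4 alone of the 3, starting 10 bases before the gene start, as in 2.74% of promoters. These are matches of letters, not mapped sites.

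In the pull-down, DBF4B was one of the most heavily read promoters of the nuclear genome, while in input DNA it was only somewhat above the typical window. Its window held 151 and 270 reads in KD OGAP, against 59 and 56 in KD input. The WT OGAP libraries had 179 and 221, while the WT input libraries had 63 and 58. All 4 OGAP libraries thus lay above all 4 inputs in plain read counts, although the OGAP libraries held fewer promoter reads in all.

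In CPM, reads scaled to a common total of promoter reads per library, DBF4B stood at 270 and 600 in KD OGAP and at 86.3 and 86.8 in KD input. In WT OGAP it stood at 486 and 556, and in WT input at 86.6 and 75.2. The group means were 435 ± 234 in KD OGAP, 86.5 ± 0.33 in KD input, 521 ± 50.1 in WT OGAP and 80.9 ± 8.02 in WT input (SD, n = 2 each). In the order of the means, WT OGAP and KD OGAP lead and are not separated, since the WT OGAP libraries lie between the KD OGAP libraries. The inputs follow and are not separated either, since a WT input library lies between the KD input libraries. The lowest OGAP library was still far above the highest input library.

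**Figure D1:**
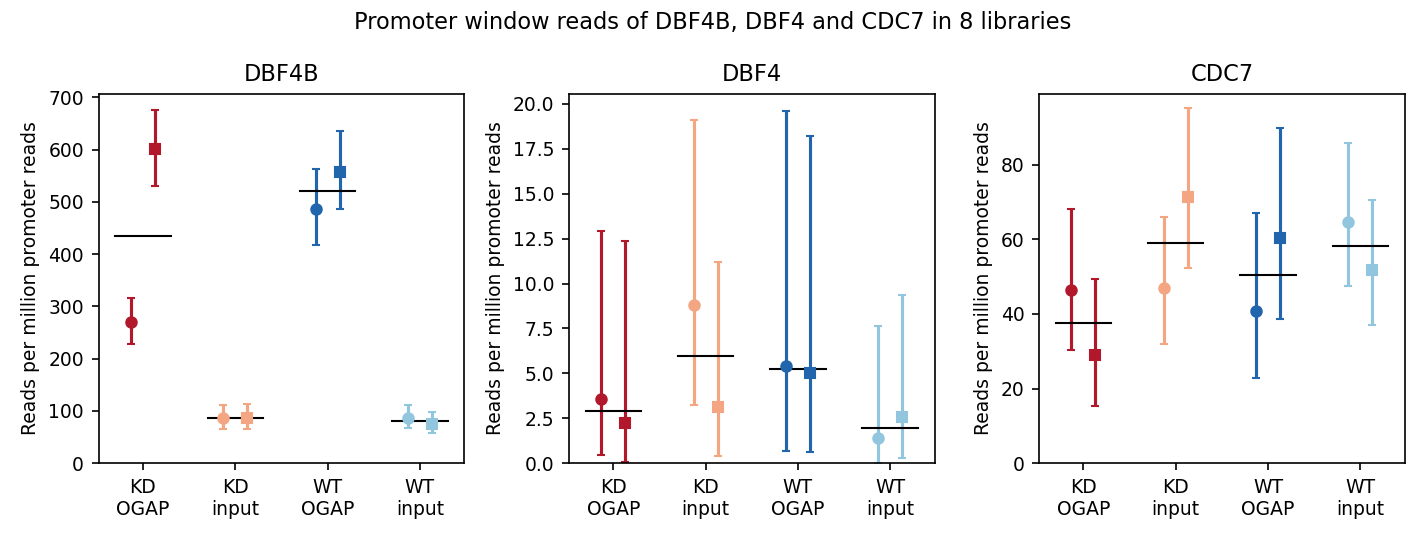
CPM (reads scaled to a common total of promoter reads) in the windows of DBF4B, DBF4 and CDC7, with a separate scale for each gene. Circles are replicate 1, squares replicate 2, bars the exact 95% Poisson interval (counting error only) and horizontal lines the mean of 2 libraries. DBF4B reaches 270 to 600 in OGAP, against 75.2 to 86.8 in input, while the 4 OGAP and 4 input values, KD and WT together, overlap for CDC7 and for DBF4.

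By reads, DBF4B ranked 10th and 8th of all windows in KD OGAP and 8th in both WT OGAP libraries. Its ranks in input were 1435 and 1204 in KD and 1458 and 3674 in WT. The windows above it in OGAP were 5 to 7 of the 13 mitochondrial windows and 2 nuclear ones, USP11, a deubiquitinase gene, and EXOC8, an exocyst subunit gene. Among the 19944 nuclear windows DBF4B therefore ranked 3rd in each of the 4 OGAP libraries. The next nuclear window below it was another one each time: NBPF1 with 129 reads and GSTA4 with 127 in KD OGAP, and MUC20 with 120 and ENSG00000119969 with 102 in WT OGAP. DBF4B exceeded it 1.17-fold and 2.13-fold in KD OGAP, and 1.49-fold and 2.17-fold in WT OGAP.

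The fitted log2 change of DBF4B in OGAP over input was 2.36 ± 0.26 in KD and 2.76 ± 0.26 in WT (± SE, edgeR), which are 5.13-fold and 6.79-fold. As background, 0.63% of the 17130 tested windows were past the threshold as higher in KD and 9.25% in WT. Larger log2 changes were fitted for 24 windows in KD and 51 in WT, but these rest on few reads. Their median was 23 reads over the 4 libraries in KD, where DBF4B had 536, and 34 in WT, where DBF4B had 521. Of these windows, only USP11 and EXOC8 held at least as many reads as DBF4B in either state. USP11 stood at 4.74 in KD and 5.23 in WT, and EXOC8 at 5.96 and 5.78. Because DNA of many cells was pooled, pull-down from more cells and more pull-down per cell cannot be told apart. Whether these reads stem from damaged bases was not tested.

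**Figure D2:**
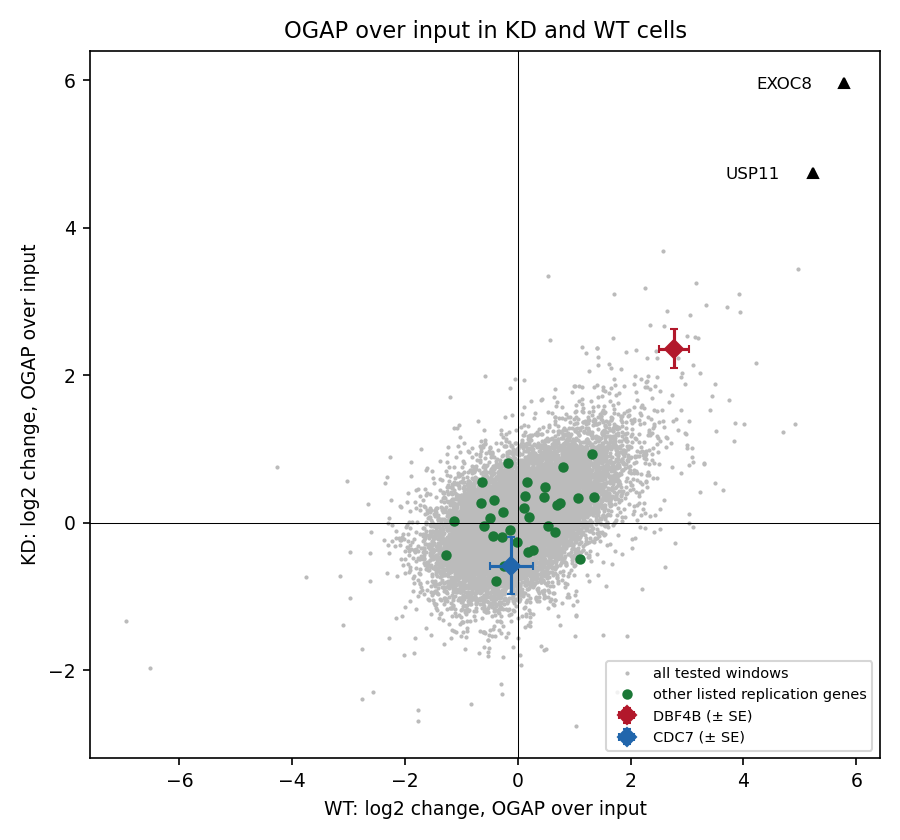
Log2 change of OGAP over input in KD cells (vertical) and WT cells (horizontal) for the 17130 tested windows. DBF4B (2.36 in KD, 2.76 in WT), chosen by its reads in these libraries, lies at the upper right, below USP11 and EXOC8. CDC7 (-0.58 in KD, -0.12 in WT) and the other listed replication genes, chosen by function, lie within the main cloud.

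The KD OGAP libraries differed in DBF4B. The second held 2.23 times the share of the first, with an exact 95% interval of 1.82 to 2.74 that covers counting error only. This ratio was only 1.15 between the WT OGAP libraries. Of 496 nuclear windows with at least 100 reads in the KD OGAP libraries together, DBF4B had the 3rd largest ratio in either direction, where the median ratio was 1.03. USP11 and EXOC8, the nuclear windows above it in reads, had ratios of 0.957 and 0.950. DBF4B aside, 1583 windows passed as higher in OGAP over input in WT. For these, ratios to the mean KD input were taken on a log2(CPM + 1) scale. The median was 0.46 in the first KD OGAP library and 0.68 in the second. The ratios of DBF4B were 1.63 and 2.78. Without the first KD OGAP library the log2 change of DBF4B in KD was 2.83, and without the second it was 1.67.

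The study set NuMA-depleted cells against WT cells, and for DBF4B no change between them was resolved. KD against WT in OGAP gave -0.32 ± 0.24 (95% interval -0.79 to 0.15; adjusted p = 0.663, edgeR). The sign turned with the KD library used. The value was -1.004 without the second KD OGAP library and 0.16 without the first. Both lie outside the 95% interval, which thus does not cover the spread between the KD OGAP libraries. DESeq2 gave -0.34 ± 0.42. In this comparison 0.035% of windows passed, 0.0175% as higher and 0.0175% as lower. USP11 stood at -0.91 ± 0.18 (adjusted p = 0.0145, edgeR) and EXOC8 at -0.79 ± 0.20 (adjusted p = 0.130). DESeq2 called 0 windows in this comparison. USP11 and EXOC8 both lay below DBF4B, a difference that was not tested. Their input values were also lower in KD, at -0.43 ± 0.25 for USP11 and -0.97 ± 0.37 for EXOC8 (adjusted p = 0.999 for each, edgeR). With the pull-down set against the input of the same state, USP11 was at -0.48 ± 0.31 (adjusted p = 0.702, edgeR). EXOC8 was then at 0.18 ± 0.41 (adjusted p = 0.940, edgeR).

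In input DNA, KD against WT gave 0.08 ± 0.28 for DBF4B (95% interval -0.48 to 0.65; adjusted p = 0.999, edgeR). No window passed there, 756 had an unadjusted p under 0.05, and DESeq2 also called 0. The KD effect on OGAP over input, which sets the pull-down against the input of the same state, was -0.41 ± 0.37 for DBF4B (95% interval -1.14 to 0.33; adjusted p = 0.821, edgeR). It was -1.09 without the second KD OGAP library and 0.08 without the first. Only 1 window, or 0.00584%, passed in this comparison. The reads by which DBF4B was chosen enter its KD effect and its KD against WT values. Their p-values and intervals are therefore no independent test of DBF4B.

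The high reads of DBF4B were not shared by the windows around it. The nearest windows on each side are CCDC43, at -18.8 kb, and ADAM11, a metalloprotease family gene, at 50.4 kb. CCDC43 held 34 and 15 reads in KD OGAP, against 40 and 37 in KD input, while WT OGAP had 37 and 24 and WT input 50 and 56. ADAM11 held 41 and 35 reads in KD OGAP, against 34 and 54 in KD input, while WT OGAP had 19 and 25 and WT input 76 and 71. Neither passed in OGAP over input in either state. Of the 6 nearest windows, 1 passed in WT, where 13.7% of all tested windows passed. It was ENSG00000131097 at 138 kb, with a log2 change of 1.56 ± 0.30 (adjusted p = 8.47e-05, edgeR). In KD this window was at 0.54 ± 0.32 (adjusted p = 0.490, edgeR).

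Within 1 Mb on either side, 45 other windows were tested, with a median log2 change of 0.14 in KD and 0.30 in WT. Over the 1026 other tested windows of chromosome 17 the medians were 0.05 and 0.03. Of the 45 windows, 8 were higher in WT (17.8%), against 9.25% of all tested windows. They included HROB, a gene for a factor that loads the MCM8-MCM9 helicase in DNA repair, at 1.89 ± 0.34 (adjusted p = 3.13e-05, edgeR). HROB held 38 and 53 reads in KD OGAP, against 39 and 60 in KD input, while WT OGAP had 81 and 32 and WT input 39 and 24, so that the WT OGAP libraries differed widely. The largest log2 change in this stretch, 3.92 in WT at ENSG00000167131, came from 8 and 24 reads in OGAP against 3 and 1 in input, in a window that shares 1479 bp with others. DBF4B held more OGAP reads than each window named here.

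**Figure D3:**
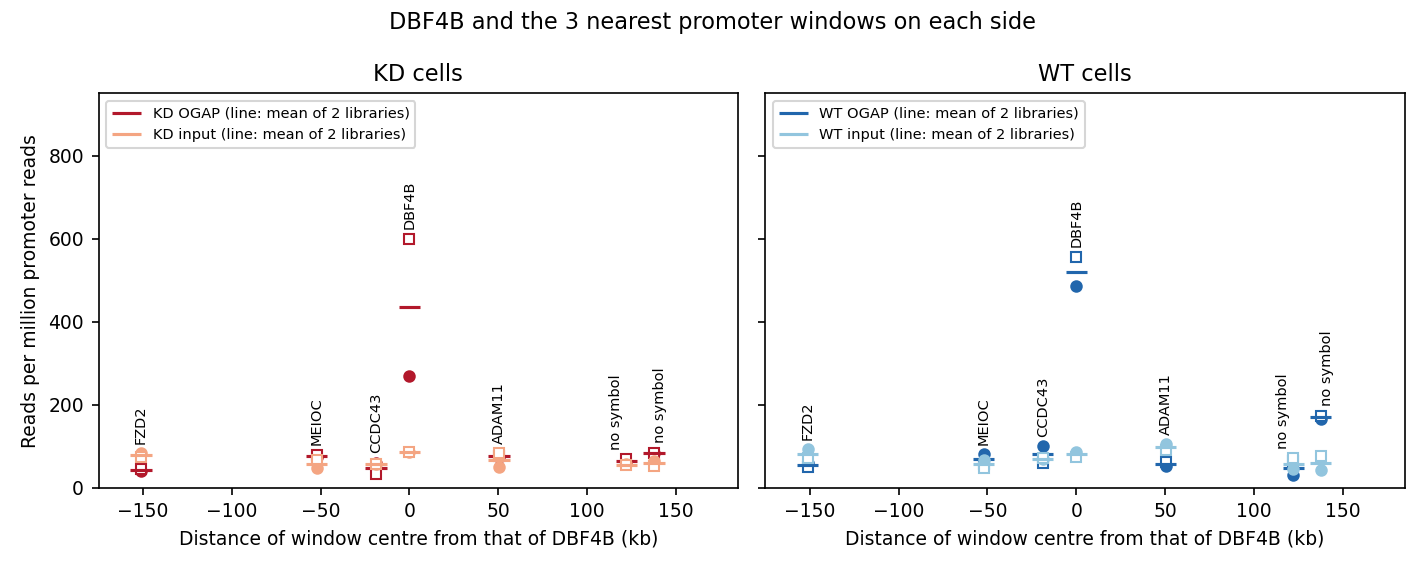
CPM (reads scaled to a common total of promoter reads) in DBF4B and the 3 nearest windows on each side, by distance from the centre of the DBF4B window, in KD cells (left) and WT cells (right). Filled circles are replicate 1, open squares replicate 2 and lines the means of 2 libraries; DBF4B stands alone in OGAP at 270 to 600, while its input values, 75.2 to 86.8, are the highest of the 7 windows in both KD input libraries and lie among those of its neighbours in WT.

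Base composition moved with OGAP over input across windows. GC content of the promoter correlated with the log2 change at r = -0.26 in KD and -0.34 in WT (Spearman -0.28 and -0.37; 9856 tested windows with a sequence, which share the same libraries). Among 818 windows within 2.5 percentage points of the GC content of DBF4B, the median log2 change was 0.14 in KD and 0.18 in WT, and the 95th percentile was 1.01 in KD and 1.44 in WT. No such window lay above DBF4B in KD, and 5 did in WT. DBF4B was chosen by its reads in these libraries, so its place here is a description. For CDC7, 1166 of 1261 windows of like GC content lay above it in KD and 771 in WT. The part of base composition in these values was not tested.

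CDC7, the kinase itself, was not raised in the pull-down. Its window held 26 and 13 reads in KD OGAP, against 32 and 46 in KD input. The WT OGAP libraries had 15 and 24, and the WT input libraries 47 and 40. Its mean CPM was 37.7 ± 12.4 in KD OGAP, 59.1 ± 17.3 in KD input, 50.6 ± 14.0 in WT OGAP and 58.2 ± 8.98 in WT input (SD, n = 2 each). Its ranks ran from 3668 to 15094 of 19957. Both KD OGAP libraries lay below both KD input libraries in CPM, with 46.4 in the higher of them against 46.8 in the lower input, while in WT the OGAP and input libraries overlapped.

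CDC7 passed in none of the comparisons. OGAP over input was -0.58 ± 0.39 in KD (95% interval -1.34 to 0.19; adjusted p = 0.564, edgeR) and -0.12 ± 0.38 in WT (-0.88 to 0.64; adjusted p = 0.875), where 0.736% of all tested windows passed in KD and 13.7% in WT. By log2 change CDC7 ranked 15473 of 17130 tested windows in KD and 9425 in WT. The WT value turned positive without WT OGAP replicate 1 (0.12) and without WT input replicate 1 (0.02). The KD value was -0.98 without KD OGAP replicate 1, -0.86 without KD input replicate 1, -0.31 without KD OGAP replicate 2 and -0.26 without KD input replicate 2. KD against WT was -0.46 ± 0.42 in OGAP (adjusted p = 0.734, edgeR) and 0.00 ± 0.35 in input (adjusted p = 0.999). The OGAP value ran from -0.85 without KD OGAP replicate 1 to -0.14 without WT OGAP replicate 2. The KD effect on OGAP over input was -0.46 ± 0.55 (adjusted p = 0.868, edgeR). With KD OGAP replicate 1 left out it was -0.85, and with KD input replicate 2 left out -0.13. At 13 to 47 reads per library, changes of the size seen in DBF4B lay outside these intervals of OGAP over input. Changes from -1.34 to 0.19 in KD and from -0.88 to 0.64 in WT lay inside them.

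DBF4 could not be measured with this table. Its window held 2 and 1 reads in KD OGAP, 6 and 2 in KD input, 2 and 2 in WT OGAP and 1 and 2 in WT input. That is 18 reads in 8 libraries, and SLC25A40, the window on top of it, held 12. Read counts of this size were usual for windows that share most of their length. The 1787 windows with at least 90% of their length in another window had a median of 6 reads over the 8 libraries, against 264 for windows without overlap, and only 20 of them passed the count filter. DBF4 was not among them. Since every group but KD input lay at or under 3 reads per library, no fold is given. DBF4B and DBF4 therefore cannot be compared as paralogues here.

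The windows whose pattern over the 8 libraries was most like DBF4B were AEBP2 (Pearson r = 0.988 of log2 CPM), SSBP3 (0.987), PDE6G (0.987), SSC4D (0.983) and DPEP2NB (0.981), among 6852 named windows with reads at or above the median. Such likeness measures shape and not size: AEBP2 had a log2 change of 0.97 in KD and 1.12 in WT, and PDE6G one of 1.44 and 1.83. In all, 227 windows had r over 0.9 with DBF4B, and the points share their libraries. The windows most like CDC7 were TAGLN2 (0.976), MAGI2 (0.968), MRPS15 (0.952), SP5 (0.942) and COBL (0.940), and 9 had r over 0.9. DBF4B and CDC7 correlated at -0.51, where the median r over the windows compared was -0.147 for DBF4B and 0.007 for CDC7.

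Other genes of DNA replication were read against the share of all windows that passed. A list of 54 such genes in 6 groups held 45 with a named window, of which 14 overlapped another window and 32 were tested. In OGAP over input in WT, 4 were higher and 1 was lower, which is 12.5% and 3.13% of those tested, against 9.25% and 4.45% of all tested windows (edgeR). Their median log2 change was 0.12 in WT, against -0.02 over all windows. In KD, 0 passed with edgeR or DESeq2, where 0.736% of all tested windows passed, so a count of 0 among 32 says nothing particular about these genes. Of the 32, 3 had an unadjusted p under 0.05 in KD, and their median was 0.11, against 0.03 over all windows. No listed gene passed in KD against WT in OGAP, where 4 had an unadjusted p under 0.05, in KD against WT in input, where 0 had, or in the KD effect on OGAP over input, where 4 had; DESeq2 called 0 of them in each.

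The MCM helicase genes, whose products include substrates of CDC7, gave no call in 3 tested of 6 listed. MCM2 held too few reads to be tested, and MCM4 and MCM7 had no named window. The tested genes were MCM3, MCM5 and MCM6. They ran from MCM3 at -0.13 ± 0.42 to MCM6 at 0.69 ± 0.35 in WT (adjusted p = 0.180, edgeR), and MCM6 was at 0.25 ± 0.35 in KD. MCM6, with 33 and 30 reads in KD OGAP and 29 and 32 in WT OGAP, had the pattern most like DBF4B (r = 0.909) among the 14 listed genes with reads at or above the median. Genes of origin recognition and licensing gave no call either, in 4 tested of 9 listed, with GMNN, which encodes the licensing inhibitor geminin, at -0.27 ± 0.45 and ORC2, an origin recognition subunit gene, at 0.13 ± 0.36 in WT. The cyclin and CDK genes of S phase gave none in 5 tested of 6, with CCNE1 at -0.60 ± 0.38 and CCNA2 at 0.28 ± 0.42 in WT. As 13.7% of all tested windows passed in WT and 0.736% in KD, no call in lists this short says little about them.

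Of the genes for origin firing, 6 of 12 were tested and 1 was lower in WT, as were 4.45% of all tested windows. This was TOPBP1, a scaffold that helps CDC45 load and activates the ATR kinase. TOPBP1 held 20 and 20 reads in KD OGAP, against 38 and 36 in KD input, while WT OGAP had 10 and 8 and WT input 42 and 49. Its log2 change was -1.28 ± 0.45 in WT (adjusted p = 0.0401, edgeR) and -0.44 ± 0.39 in KD (adjusted p = 0.695). GINS1, a subunit gene of the GINS complex, had the highest value in WT, 0.80 ± 0.36 (adjusted p = 0.130).

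Of the replicative polymerase and clamp genes, 7 of 11 were tested and 2 were higher in WT, as were 9.25% of all tested windows. POLE2, which encodes the second subunit of DNA polymerase epsilon, held 31 and 29 reads in KD OGAP, against 34 and 30 in KD input, while WT OGAP had 40 and 45 and WT input 44 and 24. It was at 1.36 ± 0.34 in WT (adjusted p = 0.00373, edgeR) and 0.35 ± 0.36 in KD (adjusted p = 0.749). RPA1, the large subunit gene of the single-strand binding protein RPA, was at 1.32 ± 0.44 in WT (adjusted p = 0.0333, edgeR) and 0.93 ± 0.44 in KD (adjusted p = 0.348). POLA2 was the lowest in WT, at -0.65 ± 0.36.

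Of the genes for fork protection, checkpoint and opponents of the kinase, 7 of 10 were tested and 2 were higher in WT. The share over all tested windows was 9.25%. TIMELESS, a fork protection gene, held 24 and 17 reads in KD OGAP, against 34 and 44 in KD input, while WT OGAP had 38 and 33 and WT input 30 and 38. It was at -0.50 ± 0.37 in KD and at 1.11 ± 0.35 in WT (adjusted p = 0.0228, edgeR), and the KD effect was -1.61 ± 0.51 (adjusted p = 0.377, edgeR). CHEK1, the checkpoint kinase gene, was at 0.33 ± 0.39 in KD and 1.07 ± 0.37 in WT (adjusted p = 0.0411, edgeR). RIF1, whose product brings a phosphatase to origins and so opposes CDC7, was at 0.27 ± 0.34 in KD and 0.76 ± 0.35 in WT (adjusted p = 0.130, edgeR). PPP1CC, a catalytic subunit gene of that phosphatase, was the lowest in WT at -0.64 ± 0.42.

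The 5 calls did not hold in every setting, although their log2 changes kept their sign in all 14. A fit without a WT library has only 1 library in that group, and fewer windows passed over all windows as well. Failing to pass there thus does not show that a call rested on the library left out. Without WT input replicate 2 none of the 5 passed, with POLE2 at 0.95, RPA1 at 1.71, TIMELESS at 1.25, CHEK1 at 0.92 and TOPBP1 at -1.21. Without WT input replicate 1, RPA1 (0.997), TIMELESS (0.97), CHEK1 (1.21) and TOPBP1 (-1.37) did not pass. Without WT OGAP replicate 1, RPA1 (1.43), TIMELESS (0.94), CHEK1 (0.65) and TOPBP1 (-1.51) did not, and without WT OGAP replicate 2, RPA1 (1.17) and TOPBP1 (-1.08) did not. With DESeq2 only POLE2 passed, and CHEK1 did not pass with upper quartile scaling (1.01, adjusted p = 0.0591, edgeR).

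**Figure D4:**
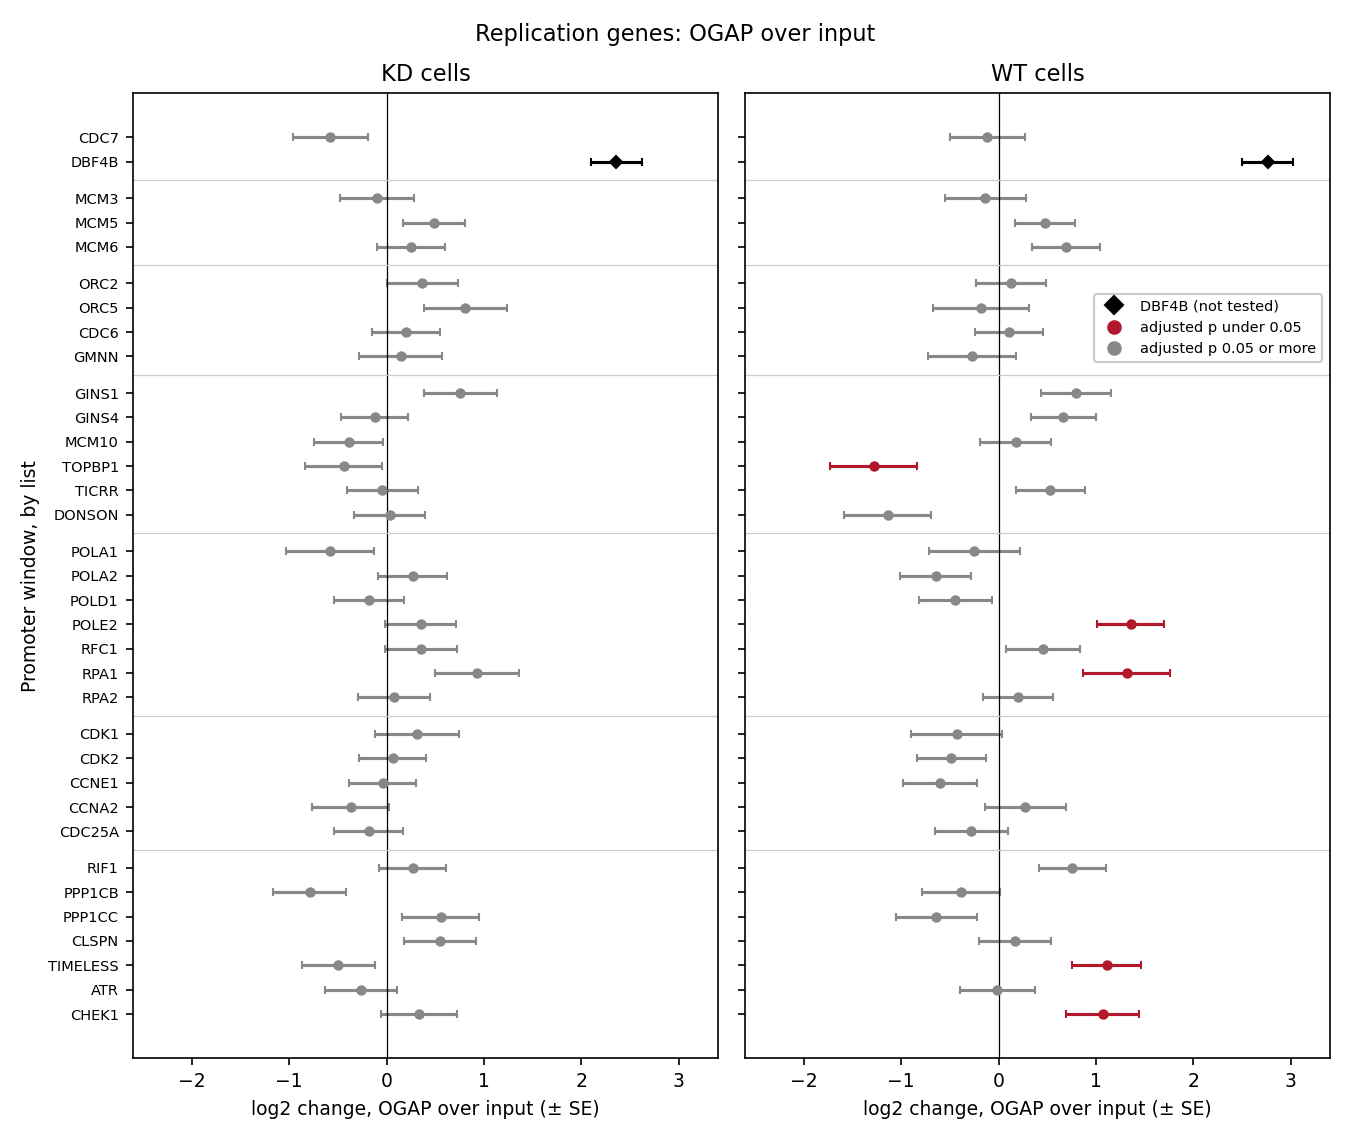
Log2 change of OGAP over input (± SE, edgeR) in KD cells (left) and WT cells (right) for the tested windows of CDC7, DBF4B and the other replication genes, with lines between the lists. DBF4B lies at 2.36 in KD and 2.76 in WT, outside the span of the other genes in each panel. It was chosen by its reads in these libraries and the others by function, so its place is a description. The 5 other genes past the threshold (red) are all in the WT panel.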

How the data were processed

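Reads in promoter windows were counted in 2 libraries each of KD OGAP, KD input, WT OGAP and WT input. The deposited values are raw read counts per window, made by the authors; per the submitters' processing notes the build was hg38, reads were handled with BWA 0.7.17-r1188, and MACS2, featureCounts and bedtools are also listed. How reads in overlapping windows and multiply mapped reads were treated is not stated. The other deposited files hold sums over all genes and were not used.

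The table holds Ensembl identifiers without symbols. A window took a gene's name if its centre was no more than 500 bp away, on that strand, from a single protein-coding gene start in RefSeq (GRCh38.p14), and a name on several windows was dropped. This named 14908 of 19957 windows (74.7%), against 0.917% after a shift of 200 kb. The outer gene starts were used, and the strand came from the RefSeq promoter table where it had the gene. Of all windows, 3741 (18.7%) overlap another window. The 452 windows without a read were not tested.

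The deposited counts entered the quasi-likelihood test of edgeR 4.0.16 under R 4.3.3 (TMM scaling, filterByExpr, 4 group means over 8 libraries); 17130 windows passed the filter. CPM scales each library to the same total of promoter reads. Adjusted p-values are Benjamini-Hochberg values over all tested windows, with a threshold of 0.05. An approximate SE was taken as log2 change divided by the root of F. The biological coefficient of variation was 0.178 in common, and the prior held 98.4 degrees of freedom where the libraries gave 4, so a single window's own spread weighs little in its SE. The fit was checked on simulated counts. Poisson and ratio intervals are exact at 95% and cover counting error only. Alternatives were DESeq2 1.42.0, other scaling, no count filter, a replicate block, only the compared groups, and leaving out each library. Named genes were the members, listed replication genes past the threshold or at either end of their list, the nearest windows, the windows beside DBF4B in rank and those with the most similar pattern; HROB and ENSG00000167131 were named after their values were seen. Members, lists and tests were chosen with earlier results of these data known.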

Additional observations from a re-analysis of the deposited data

How the results depend on the processing

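The log2 change of DBF4B in OGAP over input stayed at 1.67 to 2.83 in KD and 2.66 to 2.85 in WT over 14 alternatives each; the lowest KD value was without KD OGAP replicate 2. DBF4B and CDC7 passed in no alternative of KD against WT in OGAP, of KD against WT in input or of the KD effect. Over single libraries left out, the number of windows past the threshold ran from 890 to 2442 in OGAP over input in WT, 8 to 160 in the same in KD, 0 to 11 in KD against WT in OGAP, 0 to 0 in KD against WT in input and 0 to 6 in the KD effect, where the fits with all libraries gave 2346, 126, 6, 0 and 1. DESeq2 gave 884, 64, 0, 0 and 0. Without a count filter KD against WT in OGAP gave 12 and the KD effect 3, and size factors by median of ratios gave 3 in the KD effect. The causes were not tested. Same-numbered libraries did not deviate together (r = -0.040 to 0.024 over 6 pairs of groups). Counting error at these read depths can hide pairing, so whether the numbers pair the libraries cannot be told from this. With the replicate block the counts were 2181, 97, 5, 0 and 1, and DBF4B was at 2.31 in KD and 2.75 in WT. Among windows without overlap DBF4B ranked 2nd in every OGAP library, since EXOC8 and the 13 mitochondrial windows overlap others. Ranking nuclear windows alone was chosen after seeing the data. Read depth limits CDC7 to changes larger than its intervals. DBF4, at 18 reads in 8 libraries, has no usable value, and the reason for its few reads was not tested.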
